A study of Mus musculus with 4 samples.

Results

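The sarcoplasmic reticulum is the internal calcium store of the muscle cell, and 10 genes that fill it, hold its calcium or empty it were followed across 4 heart arrays: Atp2a1, Atp2a2, Ryr2, Pln, Sln, Casq1, Casq2, Slc8a1, Camk2d and Hrc. Every probe set annotated to 1 of these symbols alone was taken, which gave 28 of 45037 tested probe sets. All 10 genes had at least 1 probe set, and 0 probe sets that name several genes held a member symbol. The study set hearts of mice with a Sirt1 transgene, which adds copies of an NAD-dependent deacetylase gene, beside wild type hearts. Total RNA came from snap-frozen hearts of mice killed with pentobarbital at 120 mg/kg, and was measured on Affymetrix whole-genome mouse arrays. The arrays NTg-1 and NTg-2 carry the label of wild type mice, and Tg-Sirt1-1 and Tg-Sirt1-2 that of transgenic mice. The sources used here do not give the promoter of the transgene, the mouse line, or the age and sex of the animals. Values are log2 RMA values, so a difference of 1 is a 2-fold difference, and each SD is that of the 2 arrays sharing a label.

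In each heartbeat calcium enters through surface channels and triggers the ryanodine receptor, the release channel of the reticulum. The SERCA pumps then return calcium to the store, restrained by the small membrane proteins phospholamban and sarcolipin, while calsequestrin holds calcium inside the store and the sodium-calcium exchanger expels the rest across the cell surface. The ventricle is known to use SERCA2 (Atp2a2), phospholamban (Pln) and the cardiac calsequestrin (Casq2). Fast skeletal muscle uses SERCA1 (Atp2a1) and Casq1, and in the mouse heart sarcolipin (Sln) is mainly an atrial transcript.

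The arrays NTg-1 and Tg-Sirt1-1 were nearly the same although their labels differ. Over all tested probe sets their differences had an SD of 0.0759 log2 units and reached at most 0.48, whereas in the other 5 pairs of arrays the SD ran from 0.342 to 0.405. Among the 28 member probe sets the largest difference within this pair was 0.18, and among the brightest probe sets of the 10 genes it was 0.05. No array was moved to another group, and each result below gives all 4 values. The probe set of Sirt1 itself read 7.30 on NTg-1, 7.17 on NTg-2, 7.16 on Tg-Sirt1-1 and 7.93 on Tg-Sirt1-2. The array labelled Tg-Sirt1-1 therefore did not exceed the wild type arrays for Sirt1, and directions between the labels are given as directions between labelled arrays. The difference between 3′ and 5′ control probe sets, which grows when RNA is less intact, was also largest on Tg-Sirt1-2. For Gapdh it was 0.18 on NTg-1, 0.69 on NTg-2, 0.19 on Tg-Sirt1-1 and 1.34 on Tg-Sirt1-2. Markers of ventricular myocytes, such as Myh6 and Tnnt2, were bright on all 4 arrays, with a summed level of 8 genes of 16.65 to 16.83 log2 units. Of these 8, 7 were lowest on Tg-Sirt1-2, as were 4213 of all 18193 genes. Their median difference from Tg-Sirt1-1 was -0.18 there.

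The calsequestrin pair gave the widest isoform change of the 3 pairs compared below, so the promoters of these 2 genes are shown for reference. Each line holds the 250 bases before the RefSeq start in the mouse assembly GRCm38.p6, written 5′ to 3′ on the strand of the gene. Capitals mark matches to the E-box letters CANNTG and to the MEF2 consensus, both searched on both strands. The first stretch is chr1:172219896-172220145 on the minus strand, and the second is chr3:102086165-102086414 on the plus strand.
Casq1: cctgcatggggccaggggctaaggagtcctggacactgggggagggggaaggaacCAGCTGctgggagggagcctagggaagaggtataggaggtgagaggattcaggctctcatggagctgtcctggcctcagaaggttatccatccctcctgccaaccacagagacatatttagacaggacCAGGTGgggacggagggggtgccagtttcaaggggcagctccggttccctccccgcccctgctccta
Casq2: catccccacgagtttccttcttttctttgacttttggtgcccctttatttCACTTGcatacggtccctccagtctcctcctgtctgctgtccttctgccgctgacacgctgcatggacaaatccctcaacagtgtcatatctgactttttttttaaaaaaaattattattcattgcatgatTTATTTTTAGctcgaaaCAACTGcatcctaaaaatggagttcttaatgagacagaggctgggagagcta
Casq1 held 2 E-box matches, whose first bases lie 195 and 67 bases before the start, and 0 MEF2 matches. Casq2 held 2 E-box matches, at 200 and 52 bases before the start, and 1 MEF2 match at 69 bases, with no overlap between them. The MEF2 consensus is present in 2.92% of 32851 promoter stretches of this length, and the E-box letters in 66.2%. The TATA letters TATAAA (12.4% of stretches) and the MCAT letters CATTCC (12.6%) gave 0 matches in either gene. Of the 10 genes, 8 had an entry in this promoter table.

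Between the labels, 0 of the 28 probe sets passed the test, as did 0% of all 45037 probe sets (limma, two-sided, Benjamini-Hochberg threshold 0.05). The adjusted limma p was 0.996 for each of the 28, and their unadjusted p ran from 0.128 to 0.973, so that 0 were under 0.05, against 28 of 45037 over the whole table. Their median log2 fold change, Tg-Sirt1 minus NTg, was 0.07, with 17 higher and 11 lower, beside a median of -0.01 over all tested probe sets. Both Tg-Sirt1 values lay above both NTg values at 5 of 28 member probe sets, where 9.59% of all probe sets did so, and below them at 1, where 11.4% did so. As 1 array of each label nearly equals 1 array of the other, a missing call here is no evidence of equal expression.

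Single arrays were also compared with each other. Their differences are not ranked against those between the labels, since averaging 2 arrays narrows the latter. NTg-2 differed from NTg-1 by at least 1 log2 unit at 2 of the 28 probe sets, those of Casq1 and a dimmer one of Ryr2 (1.33% of all probe sets). Tg-Sirt1-2 differed that much from Tg-Sirt1-1 at 1, of Slc8a1 (2.08%), and from NTg-2 at 3, of Casq1, Slc8a1 and Camk2d (2.51%). Tg-Sirt1-1 differed that much from NTg-1 at 0 (0%). The range over the 4 arrays reached 1 log2 unit at 4 of 28 member probe sets, against 4.3% of all. NTg-2 was the lowest of the 4 arrays at 15 of 28, where 29.6% of all probe sets had their lowest value. Tg-Sirt1-2 was the highest at 11 (30.1% of all) and the lowest at 8 (29.2%). Several probe sets measure the same gene here, so these counts are not of separate genes. Counted by the brightest probe set of each gene, NTg-2 was the lowest at 4 of 10 genes, near the 37.9% of all genes. On the same count Tg-Sirt1-2 was the highest at 4 (35.8% of all genes) and the lowest at 4 (4213 of 18193 genes). The plot of the 10 brightest probe sets shows where the arrays part.

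**Figure D1:**
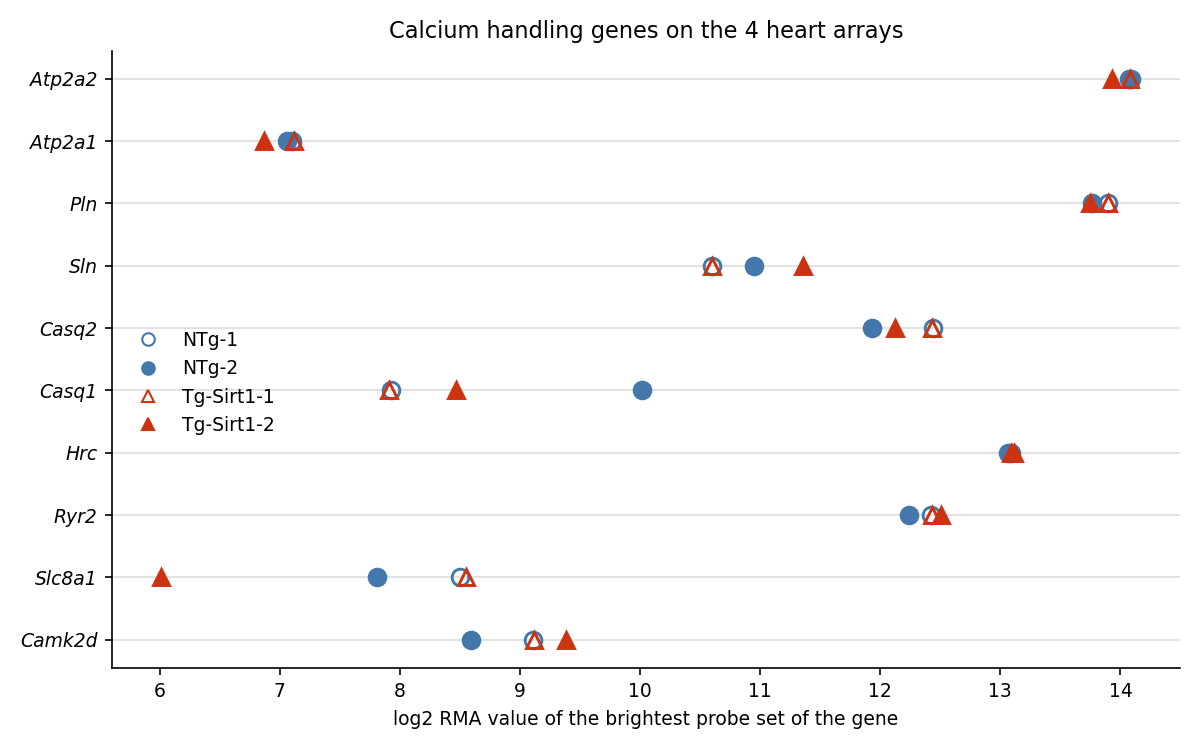
Log2 RMA value (x axis) of the brightest probe set of each of the 10 genes (rows) on each of the 4 arrays; open symbols are NTg-1 and Tg-Sirt1-1, filled symbols NTg-2 and Tg-Sirt1-2. The open symbols nearly coincide in every row, Casq1 is high on NTg-2 (10.02) and Slc8a1 is low on Tg-Sirt1-2 (6.01), while the values of Hrc and Atp2a2, at the top of the scale, span little.

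The pump gene of the cardiac reticulum, Atp2a2, varied little on its brightest probe set and more on dimmer ones. The brightest probe set read 14.09 on NTg-1, 14.07 on NTg-2, 14.08 on Tg-Sirt1-1 and 13.93 on Tg-Sirt1-2. The first 3 values lay within 0.02 of each other and Tg-Sirt1-2 was slightly below them. This probe set was among the brightest of all probe sets, above percentile 99.8 on each array, where a signal near saturation may hide a change; saturation was not tested. Tg-Sirt1 minus NTg was -0.08 ± 0.13 (SE), with 95% confidence limits of -0.42 and 0.27, and it was 0.00 without Tg-Sirt1-2. A second probe set as bright read 13.91 to 14.04. The mean over all 6 Atp2a2 probe sets gave 0.11, since the other 5 each had a higher Tg-Sirt1 mean, by 0.05 to 0.24. The widest of them, 1427251_at, read 10.20 on NTg-1, 9.31 on NTg-2, 10.23 on Tg-Sirt1-1 and 9.75 on Tg-Sirt1-2, so that it was low on NTg-2 where the brightest probe set was not.

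The skeletal pump gene Atp2a1 had 1 probe set, which read 7.10 on NTg-1, 7.06 on NTg-2, 7.12 on Tg-Sirt1-1 and 6.87 on Tg-Sirt1-2. As with Atp2a2, the first 3 arrays were close and Tg-Sirt1-2 was the lowest. Its log2 fold change was -0.09 ± 0.15 (SE), and it was 0.04 without Tg-Sirt1-2. The difference Atp2a2 minus Atp2a1 within each array was 6.99 on NTg-1, 7.01 on NTg-2, 6.96 on Tg-Sirt1-1 and 7.06 on Tg-Sirt1-2. The size of such a difference depends on the probes and is no ratio of the transcripts, so only its change from array to array is compared. That change spanned 0.10 log2 units, and the label means were 7.00 ± 0.01 (SD, n = 2) for NTg and 7.01 ± 0.07 (SD, n = 2) for Tg-Sirt1. The exact two-sided permutation test gave p = 1, where 2 against 2 arrays cannot give less than 0.333. As NTg-1 and Tg-Sirt1-1 nearly coincide, exchanging them hardly changes the contrast, so this test cannot decide for any of the isoform pairs. With 1427251_at in place of the brightest Atp2a2 probe set the span was 0.86, so the narrow span of this pair belongs to the probe sets chosen.

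Phospholamban, the main brake on SERCA2 in the ventricle, also gave values in a narrow band at the top of the scale. All 3 Pln probe sets stood at percentile 99.8 or above on each array, so the limit given for Atp2a2 holds for them too. The brightest Pln probe set read 13.90 on NTg-1, 13.76 on NTg-2, 13.90 on Tg-Sirt1-1 and 13.75 on Tg-Sirt1-2. The labels overlapped fully, since each held 1 array near 13.90 and 1 near 13.75. Between the labels it differed by -0.01 ± 0.14 (SE); it was 0.07 without NTg-1 and 0.07 without Tg-Sirt1-2. The other 2 Pln probe sets ranged from 13.18 to 13.52 and were lowest on Tg-Sirt1-2, with log2 fold changes of -0.09 and -0.08. In the first of these both Tg-Sirt1 values lay below both NTg values, but by 0.01 in the case of Tg-Sirt1-1.

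Sarcolipin, which restrains SERCA in atrial and skeletal muscle, varied more. The brighter Sln probe set read 10.60 on NTg-1, 10.95 on NTg-2, 10.60 on Tg-Sirt1-1 and 11.36 on Tg-Sirt1-2. It was high on Tg-Sirt1-2, intermediate on NTg-2 and equal on the near-identical pair, so the labels overlapped. Tg-Sirt1 minus NTg was 0.20 ± 0.29 (SE), with 95% confidence limits of -0.54 and 0.95, and it was -0.18 without Tg-Sirt1-2. A dimmer Sln probe set gave the same order with a smaller span, from 5.93 on NTg-1 to 6.24 on NTg-2 and 6.38 on Tg-Sirt1-2.

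On both NTg-2 and Tg-Sirt1-2, Pln was lower and Sln higher than on the near-identical pair. The difference Pln minus Sln was 3.30 on NTg-1, 2.81 on NTg-2, 3.30 on Tg-Sirt1-1 and 2.39 on Tg-Sirt1-2. The label means were 3.06 ± 0.35 (SD, n = 2) for NTg and 2.85 ± 0.64 (SD, n = 2) for Tg-Sirt1. The difference between the labels was -0.21 (exact permutation p = 1). It was 0.04 without NTg-1 and 0.25 without Tg-Sirt1-2. For each of the 6 combinations of a Pln with a Sln probe set the difference was lowest on Tg-Sirt1-2.

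Atrial markers moved with Sln in part. The atrial light chain gene Myl7 read 10.89 on NTg-1, 11.09 on NTg-2, 10.91 on Tg-Sirt1-1 and 11.78 on Tg-Sirt1-2, the same order as Sln. The light chain gene Myl4 read 10.55, 11.02, 10.56 and 11.07 on these arrays, and the natriuretic peptide gene Nppa 11.39, 11.88, 11.40 and 11.94. The summed level of the 8 atrial markers was 12.87 on NTg-1 and 13.20 on NTg-2, and 12.89 on Tg-Sirt1-1 and 13.40 on Tg-Sirt1-2, and 4 of the 8 were highest on Tg-Sirt1-2 (35.8% of all genes). Other markers on the list did not share this: Bmp10 was dim, at 5.52 to 5.73, and Nr2f2 read 5.91 on Tg-Sirt1-2 against 7.34 to 7.37 elsewhere. The part of atrial tissue in the Sln values was not tested. In such bulk RNA, fewer cells of a type and less RNA per cell cannot be told apart.

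**Figure D2:**
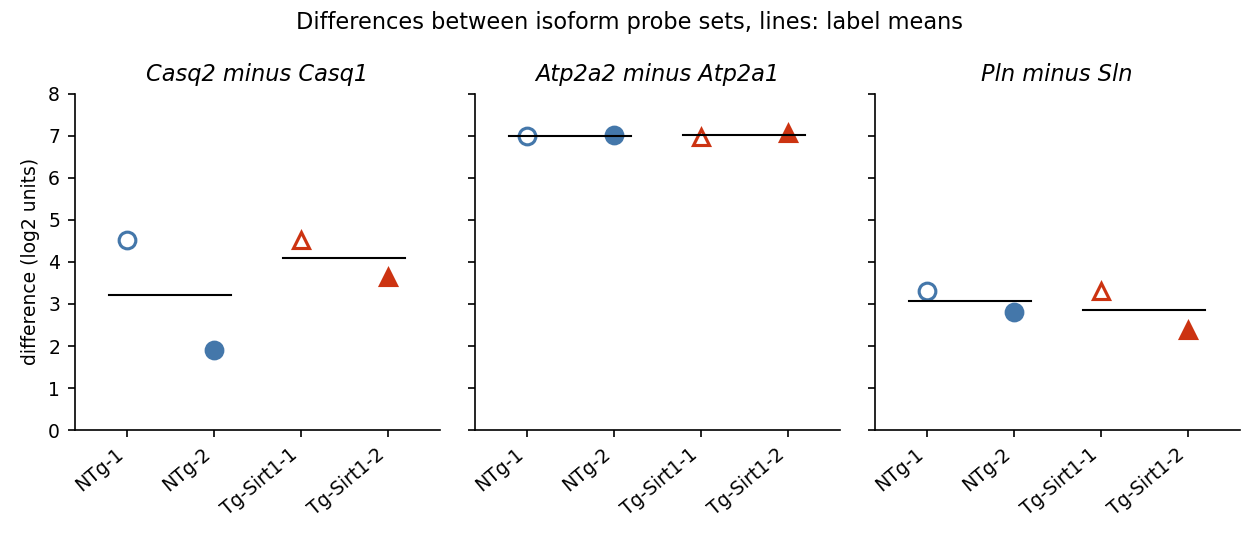
Difference of the log2 values of 2 probe sets on the same array (y axis, log2 units) for 3 isoform pairs, 1 point per array, with a line at the mean of each label. Casq2 minus Casq1 falls to 1.91 on NTg-2, Atp2a2 minus Atp2a1 stays between 6.96 and 7.06, and Pln minus Sln is lowest on Tg-Sirt1-2 (2.39).

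The calsequestrins, the calcium-holding proteins of the store, moved in opposite directions on NTg-2. Casq2, the cardiac form, read 12.44 on NTg-1, 11.93 on NTg-2, 12.43 on Tg-Sirt1-1 and 12.12 on Tg-Sirt1-2. It was lowest on NTg-2 and second lowest on Tg-Sirt1-2. Its log2 fold change was 0.09 ± 0.22 (SE); it was -0.17 without NTg-2 and -0.07 without Tg-Sirt1-1. Its probe set carries the suffix _s_at, which marks probes that can match transcripts of more than 1 gene.

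Casq1, the skeletal form, read 7.93 on NTg-1, 10.02 on NTg-2, 7.91 on Tg-Sirt1-1 and 8.47 on Tg-Sirt1-2. It stood 2.09 log2 units higher on NTg-2 than on NTg-1, and Tg-Sirt1-2 was 0.56 above Tg-Sirt1-1. Tg-Sirt1 minus NTg was -0.79 ± 0.69 (SE), with 95% confidence limits of -2.55 and 0.98. Without NTg-2 it was 0.26, so its sign rested on that array. Casq1 had a single probe set, so no other probe set could be set beside it.

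The difference Casq2 minus Casq1 was 4.51 on NTg-1, 1.91 on NTg-2, 4.52 on Tg-Sirt1-1 and 3.65 on Tg-Sirt1-2. It fell by 2.60 from NTg-1 to NTg-2 and by 0.87 from Tg-Sirt1-1 to Tg-Sirt1-2. Casq1 supplied most of both changes. The label means were 3.21 ± 1.84 (SD, n = 2) for NTg and 4.08 ± 0.62 (SD, n = 2) for Tg-Sirt1. The difference between the labels was 0.88 (exact permutation p = 0.667). Without NTg-2 it was -0.43.

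Skeletal muscle markers, mostly of fast fibres, were higher on NTg-2 in part, by less than Casq1. Their summed level over 11 genes was 9.33 on NTg-1 and 9.48 on NTg-2, and 9.31 on Tg-Sirt1-1 and 9.28 on Tg-Sirt1-2. Of the 11, 7 were highest on NTg-2 (34.3% of all genes), with a median difference of 0.15 from NTg-1. Over all 45037 tested probe sets, dim ones included, NTg-2 was the highest at 17349. The widest differences between NTg-2 and NTg-1 were 0.48 for the fast troponin gene Tnnc2, 0.41 for the myogenic factor gene Myod1 and 0.30 for the fast light chain gene Mylpf. These genes were dim: Tnnc2 read 4.74 to 5.27, Myod1 5.51 to 6.14 and Mylpf 5.84 to 6.29, below the median of each array. Tnni2 was brighter, at 6.94 to 7.15. The fast myosin genes Myh1, Myh2 and Myh4 differed by 0.22, -0.08 and 0.06, and Myh4 was among the dimmest probe sets, at 4.17 to 4.25. The fast skeletal pump gene Atp2a1, described above, was 0.04 lower on NTg-2 than on NTg-1. Among slow and developing muscle genes the arrays did differ. The skeletal actin gene Acta1 read 12.17 on NTg-2 and 6.46 to 7.37 elsewhere, and the slow myosin gene Myh7 13.27 on NTg-2 and 10.89 to 11.65 elsewhere. The slow troponin gene Tnnt1 went the other way, at 7.43 on NTg-2 and 10.92 to 11.16 elsewhere. Over the 7 genes of this list the summed level was 12.44 on NTg-1, 13.86 on NTg-2, 12.44 on Tg-Sirt1-1 and 12.14 on Tg-Sirt1-2, and 5 of the 7 were highest on NTg-2, beside the 34.3% of all genes given above. What part other muscle cells had in the Casq1 value was not tested.

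**Figure D3:**
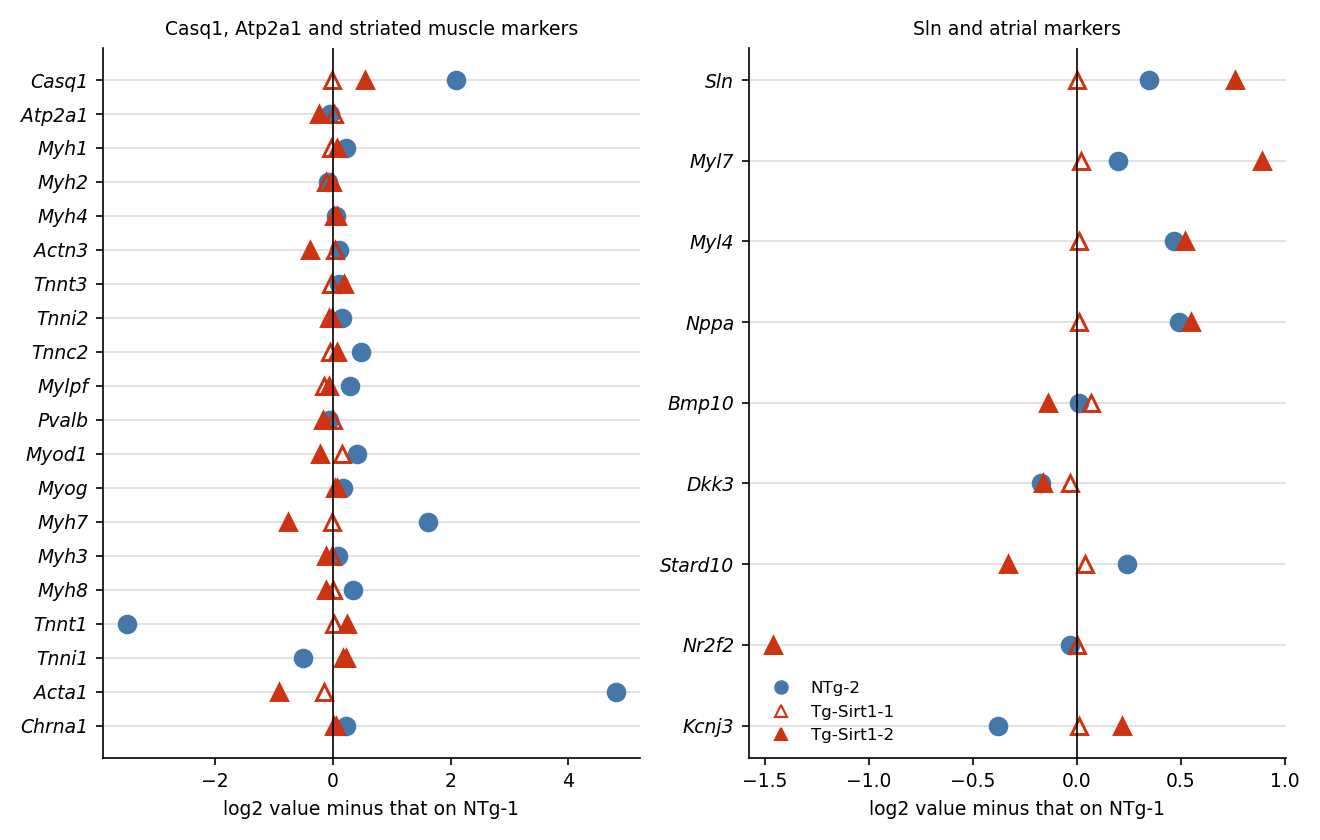
Log2 value minus that on NTg-1 (x axis, so NTg-1 lies on the line at 0) for Casq1, Atp2a1 and markers of fast, slow and developing striated muscle (left), and for Sln and atrial markers (right). Casq1, Acta1 and Myh7 stand to the right on NTg-2 and Tnnt1 to the left, while the fast fibre markers with Myod1 and Myog differ by -0.08 (Myh2) to 0.48 (Tnnc2); Sln, Myl7, Myl4 and Nppa lie right of 0 on NTg-2 and Tg-Sirt1-2.

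Hrc, the histidine-rich calcium-binding protein of the same store, read 13.09 on NTg-1, 13.06 on NTg-2, 13.09 on Tg-Sirt1-1 and 13.11 on Tg-Sirt1-2. Its range of 0.05 was the narrowest of the 28 probe sets. Between the labels it differed by 0.03 ± 0.13 (SE). On NTg-2, where Casq2 was 0.51 lower and Casq1 2.09 higher than on NTg-1, Hrc was 0.03 lower. The Hrc probe set stood at percentile 99.8 on each array.

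Ryr2, the release channel of the cardiac reticulum, read 12.42 on NTg-1, 12.24 on NTg-2, 12.43 on Tg-Sirt1-1 and 12.51 on Tg-Sirt1-2 on its brighter probe set. Both Tg-Sirt1 values lay above both NTg values, but Tg-Sirt1-1 exceeded NTg-1 by only 0.01. Its log2 fold change was 0.14 ± 0.14 (SE), and it was 0.05 without NTg-2 and 0.23 without NTg-1. The dimmer probe set read 9.20 on NTg-1, 8.19 on NTg-2, 9.10 on Tg-Sirt1-1 and 8.25 on Tg-Sirt1-2. It was thus low on the 2 arrays outside the near-identical pair, and on Tg-Sirt1-2 the probe sets went in opposite directions relative to Tg-Sirt1-1, by 0.08 and -0.85.

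Slc8a1, the sodium-calcium exchanger, had the widest range of all members. Its brightest probe set, 1437675_at, read 8.50 on NTg-1, 7.81 on NTg-2, 8.55 on Tg-Sirt1-1 and 6.01 on Tg-Sirt1-2. Tg-Sirt1-2 stood 2.54 below Tg-Sirt1-1. Tg-Sirt1 minus NTg was -0.88 ± 0.83 (SE), with 95% confidence limits of -3.01 and 1.26, and it was 0.40 without Tg-Sirt1-2.

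Of the other 3 Slc8a1 probe sets, 1 was also lower on Tg-Sirt1-2 than on Tg-Sirt1-1, by 0.65, and 2 were higher. The probe set 1425817_a_at read 7.88 on NTg-1, 7.03 on NTg-2, 7.74 on Tg-Sirt1-1 and 7.09 on Tg-Sirt1-2, low on both arrays outside the pair. In contrast, 1420210_at read 7.22, 7.31, 7.30 and 7.53, and 1440201_at 6.26, 6.12, 6.29 and 6.62, so that both were highest on Tg-Sirt1-2. Over the 4 probe sets the log2 fold change averaged -0.13. The probe sets of Slc8a1 therefore gave no common direction between the labels.

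Camk2d, the main cardiac form of the calcium/calmodulin-dependent kinase II, which phosphorylates Ryr2 and phospholamban, had the lowest p of the members. Its brightest probe set read 9.11 on NTg-1, 8.59 on NTg-2, 9.12 on Tg-Sirt1-1 and 9.38 on Tg-Sirt1-2. Both Tg-Sirt1 values lay above both NTg values, by 0.01 in the case of Tg-Sirt1-1 and NTg-1. Tg-Sirt1 minus NTg was 0.40 ± 0.22 (SE), with 95% confidence limits of -0.16 and 0.96. It was 0.14 without NTg-2 and 0.66 without NTg-1.

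The other 6 Camk2d probe sets disagreed in direction. Their log2 fold changes ran from -0.50 to 0.35, and the mean over all 7 was 0.03. The probe set 1460630_at read 6.27 on NTg-1, 6.23 on NTg-2, 6.33 on Tg-Sirt1-1 and 6.87 on Tg-Sirt1-2, high on the last. The probe set 1459457_at read 6.64, 6.79, 6.70 and 5.73, low on the last. The second brightest, 1427763_a_at, read 8.94, 8.24, 8.94 and 8.47, low on both arrays outside the pair. Which exons or transcript ends these probe sets cover was not determined here. The 3′ minus 5′ control difference was also largest on Tg-Sirt1-2 (1.92 for Actb, against 1.22 to 1.44 on the other arrays), and its part in the spread between probe sets of 1 gene was not tested.

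**Figure D4:**
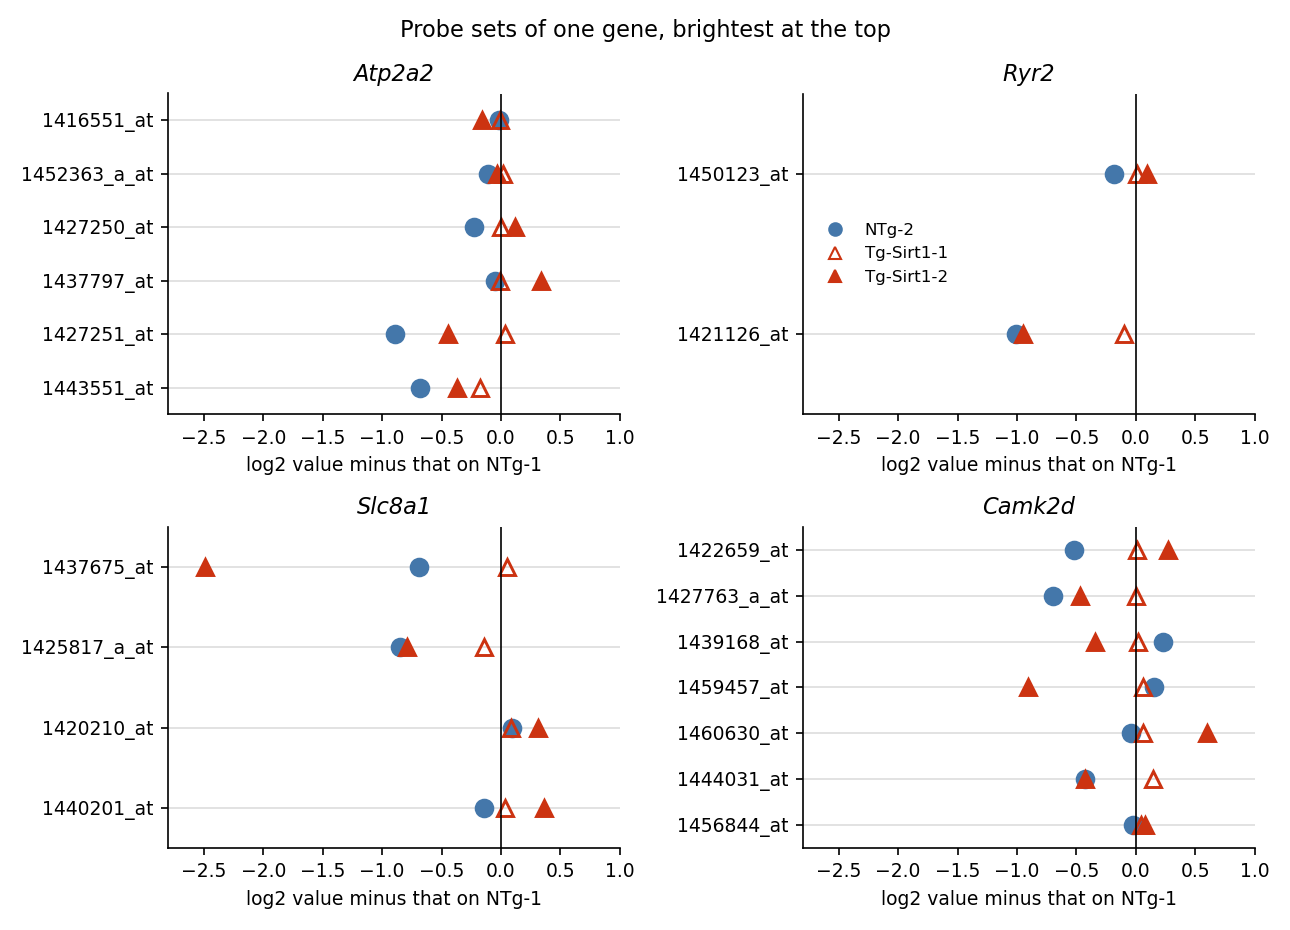
Log2 value minus that on NTg-1 (x axis, so NTg-1 lies on the line at 0) for every probe set (rows, brightest at the top) of Atp2a2, Ryr2, Slc8a1 and Camk2d. Probe sets of 1 gene part on Tg-Sirt1-2: in Slc8a1 2 lie below Tg-Sirt1-1 (by 2.54 and 0.65 log2 units) and 2 above it, and in Camk2d 1459457_at lies 0.97 below and 1460630_at 0.54 above.

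Among 78 other genes of calcium handling on 6 lists, 68 were measured and 0 passed in either direction. Their log2 fold changes ran from -0.32 to 0.50 with a median of 0.02, beside 0.01 over 18193 genes, and 36 were higher and 31 lower. Without NTg-2, 24 were higher and 44 lower, an alternative chosen after seeing the data. Both Tg-Sirt1 values lay above both NTg values at 3 of them (11.4% of all genes) and below at 9 (9.3%). The range over the arrays reached 1 log2 unit at 2, the calcium channel subunit gene Cacnb2 and the plasma membrane pump gene Atp2b1, against 3.3% of all genes; Atp2b1 is named after its values were seen. NTg-2 was the lowest array at 30 of the 68, against 37.9% of all genes.

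Of 6 measured pump regulators, 3 were higher and 3 lower. Hax1, which encodes a partner of phospholamban, read 11.12 on NTg-1, 10.85 on NTg-2, 11.14 on Tg-Sirt1-1 and 11.27 on Tg-Sirt1-2; its log2 fold change was 0.22, and 0.09 without NTg-2. The calcium sensor gene S100a1 read 11.57 on Tg-Sirt1-2 and 12.08 to 12.12 elsewhere. The sorcin gene Sri and the sarcalumenin gene Srl had ranges of 0.57 and 0.32 and were low on both NTg-2 and Tg-Sirt1-2.

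In the release complex, 6 of 11 genes were higher and 5 lower, with a median of 0.02, and without NTg-2 3 were higher and 8 lower. Fkbp1b, which encodes the ryanodine receptor stabiliser calstabin, had a log2 fold change of 0.20 on a dim probe set (5.72 to 6.09), and 0.10 without NTg-2. The skeletal release channel gene Ryr1 (-0.09), the minor channel gene Ryr3 (-0.15) and the counter-ion channel gene Tmem38b (-0.11) had both Tg-Sirt1 values below both NTg values, with ranges of 0.13 to 0.28. Ryr3 gave -0.03 without NTg-2, and Tmem38b -0.01 and Ryr1 -0.04 without Tg-Sirt1-2.

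Of 8 genes of the junction between reticulum and surface membrane, 4 were higher and 3 lower, and 1, Cacna2d1, had a difference of 0.00. Cacnb2 read 10.28 on NTg-1, 9.17 on NTg-2, 10.31 on Tg-Sirt1-1 and 9.78 on Tg-Sirt1-2, low on both arrays outside the pair. Jph2, the gene of the cardiac junctophilin that ties the store to the T-tubule, read 11.62, 11.19, 11.66 and 10.93 on these arrays. The skeletal calcium channel gene Cacna1s had a range of 0.48 and the caveolin gene Cav3 one of 0.36.

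The 7 luminal calcium proteins and chaperones had the same lowest array. All were lowest on NTg-2, as were 37.9% of all genes, and had a higher Tg-Sirt1 mean, with a median log2 fold change of 0.18. Without NTg-2 the median was -0.04, with 1 higher and 6 lower. The calreticulin gene Calr stood at percentile 97.8 and the chaperone gene Hspa5 at 98.8 on each array. Their lower values on NTg-2 therefore came without a lower rank. The percentiles of the others were lower on NTg-2 than on NTg-1. The reticulocalbin gene Rcn1 read 7.94 on NTg-1, 7.18 on NTg-2, 7.87 on Tg-Sirt1-1 and 8.10 on Tg-Sirt1-2. The calumenin gene Calu read 10.74 on NTg-2 and 11.13 to 11.39 elsewhere, the calnexin gene Canx 10.17 and 10.58 to 10.75, and Sdf4 9.50 and 9.88 to 9.92. All 7 fibroblast markers were also lowest on NTg-2. Their summed level was 14.46 on NTg-1, 13.67 on NTg-2, 14.45 on Tg-Sirt1-1 and 14.16 on Tg-Sirt1-2. From NTg-1 to NTg-2 the summed level also fell for smooth muscle markers (13.56 to 12.52) and endothelial markers (12.32 to 11.87). The brightest smooth muscle gene, Acta2, read 13.20 on NTg-1 and 11.83 on NTg-2, while the median difference of that list was only -0.09. For endothelial markers the median difference was -0.48. Adipocyte markers had a median difference of -0.80 from NTg-1 to NTg-2. From Tg-Sirt1-1 to Tg-Sirt1-2 the medians were -0.54 for smooth muscle, -0.19 for endothelial, -0.95 for adipocyte and -0.19 for fibroblast markers. For the luminal genes this median was -0.05. On NTg-2, 2 of 5 smooth muscle, 2 of 6 endothelial and 1 of 4 adipocyte markers were lowest. On Tg-Sirt1-2, 3, 4 and 2 of these were lowest, as were 4213 of all 18193 genes. The summed levels of the atrial, fast and slow muscle markers given above were higher on NTg-2 than on NTg-1. The part of any of these cell types in the luminal values was not tested.

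Of 16 genes of surface and mitochondrial calcium transport, 13 were lower and 3 higher, with a median of -0.14. Over all 18193 genes, 8324 were lower and 9653 higher. Without NTg-2, 12 of the 16 were lower and 4 higher, and without Tg-Sirt1-2, 10 were lower and 6 higher. The store sensor gene Stim2 read 8.08 on NTg-1, 7.42 on NTg-2, 8.12 on Tg-Sirt1-1 and 8.38 on Tg-Sirt1-2; its log2 fold change was 0.50, with 0.17 without NTg-2 and 0.83 without NTg-1. Its paralog Stim1 read 7.63, 7.89, 7.48 and 7.44 on these arrays (-0.30, and -0.17 without NTg-2), opposite to Stim2 on NTg-2. For Stim1, Tg-Sirt1-2 minus Tg-Sirt1-1 was only -0.04, beside -0.15 for Tg-Sirt1-1 minus NTg-1. The channel gene Orai3 (-0.30, and -0.14 without Tg-Sirt1-2) and the exchanger gene Slc8a3 (-0.27, and -0.09 without NTg-2) had ranges of 0.55 and 0.48. Of 20 kinases, phosphatases and anchors, 13 were higher and 7 lower, with a median of 0.10, beside the 9653 of 18193 genes that were higher. On NTg-2, 12 of the 20 were lowest, where 37.9% of all genes were. Without NTg-2, 9 were higher and 11 lower. Camk2g, a second kinase II gene, read 10.22 on NTg-1, 9.72 on NTg-2, 10.22 on Tg-Sirt1-1 and 9.28 on Tg-Sirt1-2, low where the brightest Camk2d probe set was highest. The phosphodiesterase gene Pde4d (0.42, and 0.10 without NTg-2) and the phosphatase gene Ppp1cc (0.38, and 0.17 without Tg-Sirt1-2) were lowest on NTg-2 and highest on Tg-Sirt1-2, and the kinase A subunit gene Prkar1a had a range of 0.72.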

How the data were processed

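The deposited table holds a log2 value for each probe set on each array. Per the submitters' processing notes, Affymetrix Expression Console and RMA were used; no versions are named. RMA subtracts background, is meant to equalise the arrays' distributions and summarises probes, so a change in total RNA is removed and dim differences shrink. The deposited distributions were not fully equal. Array medians ran from 6.22 to 6.30, and Calr stood at percentile 97.8 with 11.32 on NTg-1 and 11.08 on NTg-2. A second quantile normalization changed the log2 fold change of Ryr2 from 0.14 to 0.07, of Sln from 0.205 to 0.11 and of Casq1 from -0.785 to -0.87. It reversed 0 results. Scanner files were not used here, so depth has no counterpart: the number of arrays limits the precision. Control probe sets (64 of 45101) were left out, and names came from the platform annotation, in which 34945 tested probe sets had 1 symbol, 932 several and 9160 none; 34741 Entrez identifiers matched RefSeq's GRCm38.p6 table and 0 symbols changed.

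Tg-Sirt1 was compared with NTg over all 45037 probe sets in limma 3.58.1 (R 4.3.3, lmFit and eBayes, Benjamini-Hochberg adjustment). The code of the fit was tried on simulated data of 4 independent arrays. These held no near-identical pair, so the trial does not show how the test behaves on the present arrays. The brightest probe set represents a gene. Differences between isoform probe sets were tested by exact permutation. A summed level is the log2 of the summed linear values. The text names all members and, per list, up to 4 genes: those past the threshold, then those of non-overlapping labels by size of change, then those of widest range. Members, lists and alternatives were chosen with earlier results of these data known. Alternatives covered arrays left out, the near-identical pair counted once, the replicate number as a block, rescaling, dim probe sets, an offset, other moderation, another threshold and other representatives.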

Additional observations from a re-analysis of the deposited data

How the results depend on the processing

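The count of 0 passing probe sets, among members and over the whole table, held in each alternative limma fit, the replicate block included (0 members), and at an adjusted p of 0.1. Unadjusted p-values under 0.05 numbered 0 to 4314 over these fits and 31 with the block. Each fit that left out 1 array leaves 1 label with a lone array, assumed to vary like the other label. The labels give the replicate numbers no shared animal or day (correlation of same-number deviations 0.293 over 2 pairs), and the block changed no call. The near-identical arrays both carry the number 1, which by itself raises this correlation, so it cannot show a pairing by number. Ranges over the fits without 1 array, in log2 units Tg-Sirt1 minus NTg, were -0.21 to 0.04 for Atp2a1, -0.15 to 0.00 for Atp2a2, -0.08 to 0.07 for Pln, -0.175 to 0.585 for Sln, -1.83 to 0.26 for Casq1, -0.165 to 0.345 for Casq2 and -2.145 to 0.395 for Slc8a1. They were 0.05 to 0.23 for Ryr2, 0.14 to 0.66 for Camk2d and 0.01 to 0.04 for Hrc; where labels do not overlap, as for Ryr2 and Camk2d, leaving out 1 array cannot turn the sign. The mean over all Camk2d probe sets gave 0.03. For the isoform differences the ranges were -0.425 to 2.175 (Casq2 minus Casq1), -0.04 to 0.06 (Atp2a2 minus Atp2a1) and -0.665 to 0.245 (Pln minus Sln).

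Other settings turned few signs. Counting the near-identical arrays once under NTg gave -0.0625 for Casq2; counting them once under Tg-Sirt1 gave 0.065 for Pln and 0.035 for Pln minus Sln. Centring the arrays on their medians gave 0.03 for Pln. The mean over all probe sets gave 0.107 for Atp2a2. The 6 member probe sets with non-overlapping labels became 12 to 19 without 1 array and 19 with the pair counted once under either label. A label with 1 array separates more easily. With the arrays centred on their medians the count was 4. The share over all probe sets under these settings is not given here, so these counts say nothing particular about the members.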
